A study of Homo sapiens with 10 samples.

Results

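The fibroblast growth factor (FGF) system is described here through 37 of the 28265 gene symbols in the count tables. They are the 22 genes named FGF with a number, the 4 receptor tyrosine kinase genes *FGFR1* to *FGFR4*, and 11 genes that ERK signalling downstream of these receptors is known to induce. The 11 are the phosphatase genes *DUSP4*, *DUSP5* and *DUSP6*, the inhibitor genes *SPRY1*, *SPRY2*, *SPRY4*, *SPRED1*, *SPRED2* and *SPRED3*, and the ETS transcription factor genes *ETV4* and *ETV5*. Members were taken by gene symbol, and the choice was made with earlier results of these data known.

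Bulk RNA-seq had been performed on NKX2-1 GFP+ cells sorted from thyroid organoids of a human embryonic stem cell line, ESIBIe003-A-6. The line is a single modified line in which GFP reports from one *NKX2-1* allele and in which doxycycline switches on *NKX2-1* and *PAX8* transgenes, and all groups share these alleles. There were 2 libraries at each of days 16, 23, 31, 38 and 45, each from pooled wells, 10 in all. By the study's methods, all cells first received Activin A, to induce endoderm, and then doxycycline, followed by basal medium up to day 16. They received 8-br-cAMP, a cAMP analogue, before days 23 and 31. Day 38 followed recombinant TSH, which replaced the cAMP analogue, with dexamethasone, a glucocorticoid. Day 45 followed the further addition of SB431542, which inhibits TGFβ receptor kinases. The sample titles name cAMP for day 16 also and name TSH and SB, without dexamethasone, for day 45. The study dates the switch to TSH and dexamethasone shortly before day 31, and the addition of SB431542 shortly before or at day 38. By these dates the day 31 and day 38 libraries may have been taken after a switch. Except perhaps between days 23 and 31, time and medium change together by this account and cannot be told apart.

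Total counts ran from 7247268 to 10333933 per library. Levels are given as CPM, counts relative to the size of the library after scaling by TMM factors, and every pair of values gives library 1 and then library 2 of a day. The 37 genes held 0.0685 to 0.112% of the counts of a library, with both day 31 libraries above all others and both day 38 libraries below all others. Changes were tested in 21014 genes with the quasi-likelihood F test of edgeR, fitted over all 10 libraries, and a gene was called at a Benjamini-Hochberg adjusted p under 0.05. Log2 fold changes are given with approximate standard errors (SE), and n is 2 libraries a day throughout.

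The sorted cells carried the labelled identity in part. *NKX2-1* itself was at 90.0 and 83.9 CPM on day 16, 151 and 157 on day 31 and 58.1 and 66.7 on day 45, and reads of the transgene cannot be told apart from those of the gene. *TG*, which encodes thyroglobulin, went from 10.7 and 11.7 CPM on day 16 to 7964 and 7525 on day 45. Of 8 thyroid markers, 4 were called higher and 3 lower between these days. Among the lower, *FOXE1* went from 897 and 630 to 204 and 218 CPM, and *PAX8* from 728 and 572 to 536 and 500. The pluripotency genes *POU5F1* and *UTF1* had no more than 3 counts in any library. Others of the same list were present on day 16, with *DPPA4* at 141 and 140 CPM, *LIN28B* at 116 and 126 and *LIN28A* at 39.8 and 26.6. The 7 genes of this list summed to 302 and 301 CPM on day 16, 57.2 and 55.7 on day 38 and 18.7 and 16.7 on day 45. A list of 10 fibroblast markers, however, summed to 979 and 1212 CPM on day 16 and 4551 and 4744 on day 38, with *COL3A1* the most abundant. Whether sorted cells or other cells made this RNA was not tested. In such bulk samples, fewer cells of a type and less RNA per cell cannot be told apart.

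FGFs are secreted ligands that, together with heparan sulphate or Klotho co-receptors, activate receptor tyrosine kinases and through RAS, RAF and MEK the kinase ERK. Active ERK induces ETS factors of the PEA3 group and, as negative feedback, Sprouty and Spred proteins that dampen signalling at the RAS and RAF level and dual-specificity phosphatases that take phosphate off ERK. In the embryo, FGFs made by mesoderm next to the foregut endoderm take part in thyroid and lung specification and in the later growth of both organs.

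Of the 37 genes, 32 passed the low-count filter and were tested, and *FGF3*, *FGF4*, *FGF6*, *FGF16* and *FGF21* were not. Over all days together, 18 of the 32 changed (56.2%), against a background of 36.3% of all genes tested. Among the roles, 5 of 6 Sprouty and Spred genes, all 3 phosphatase genes, both ETS genes, 2 of 4 receptor genes and 6 of 17 tested FGF genes were among these 18.

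From day 16 to day 23, 2 members rose and 3 fell, against a background of 5.6% of all genes called higher and 5.33% called lower. *ETV5* and *SPRED2* rose, and *DUSP5*, *DUSP6* and *FGF11* fell. Over this step 4 of 10 fibroblast markers rose and 2 fell, and their sum went from 979 and 1212 CPM to 1852 and 1847. Of 10 proliferation markers, 4 fell and none was called higher. The part of these markers in the changes of the members was not tested. From day 23 to day 31, *ETV5*, *DUSP4* and *FGF11* rose and no member was called lower, where 1.58% of all genes were called higher and 0.666% lower.

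From day 31 to day 38, *FGF11* rose and 6 members fell, against 8.8% called higher and 6.23% called lower. Those that fell were *ETV4*, *ETV5*, *DUSP4*, *SPRY4*, *SPRED1* and *SPRED2*, all 6 of them genes downstream of ERK. The other members downstream of ERK were not called. Of these, *DUSP5* and *SPRY1* had log2 fold changes of 0.56 and 0.62, and *DUSP6*, *SPRY2* and *SPRED3* of −0.47, −0.33 and −0.98. Over this step 6 of 8 cardiovascular muscle markers rose and none was called lower, and their sum went from 37.4 and 34.6 CPM to 271 and 251, with *MYH6* highest. Of 5 goblet markers, *MUC5AC* and *MUC5B* rose and *AGR2* fell, from 156 and 135 to 37.6 and 26.9 CPM. Their part in the fall of the 6 members was not tested. From day 38 to day 45, 5 rose and 5 fell, against 4.85% called higher and 6.35% called lower. *DUSP4*, *DUSP5*, *DUSP6*, *SPRY4* and *FGFR1* rose, while *FGFR2*, *SPRY1*, *FGF9*, *FGF11* and *FGF13* fell.

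Between the first and the last day, 5 members rose and 6 fell, against 12.9% called higher and 11.7% called lower. The 5 were *ETV5*, *SPRED3*, *SPRY4*, *FGF1* and *FGF11*, and the 6 were *FGFR2*, *SPRY1*, *FGF9*, *FGF10*, *FGF13* and *FGF18*. As shares of the 32 tested members these are 15.6% and 18.8%. The median log2 fold change of the 32 was −0.18, 0.55, −0.45 and 0.43 over the 4 steps in order, where that of all genes tested lay between −0.02 and 0.00. The 32 include *FGF8*, *FGF12*, *FGF17*, *FGF19* and *FGF22*, which had 3 counts or fewer in several libraries. From day 38 to day 45 their log2 fold changes were 5.66, −1.77, 0.62, 3.46 and 6.46, none called. The medians therefore rest in part on genes with almost no counts. Comparisons that share a day also share its libraries, so a high or low library at one day enters 2 steps or more.

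**Figure D1:**
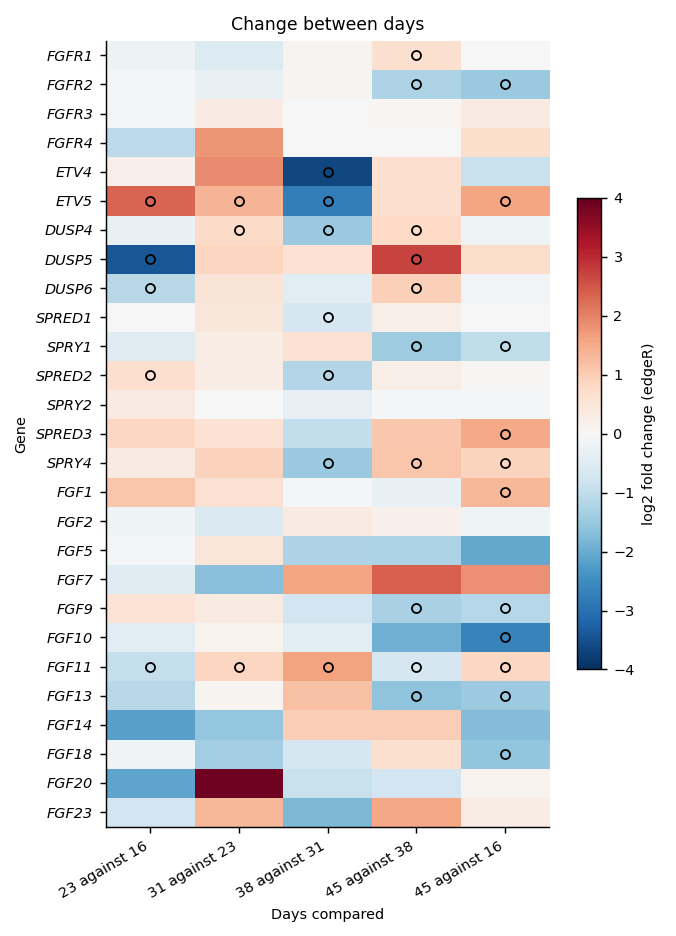
Log2 fold change (edgeR, colour) of 27 members in each comparison of days (columns); circles mark the 36 changes past an adjusted p of 0.05. The 5 tested members with 3 counts or fewer in at least 3 libraries are left out, and *ETV5* runs from red in the first steps to blue from day 31 to day 38.

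Among the receptor genes, *FGFR2* fell and *FGFR1* rose from day 38 to day 45. *FGFR2*, on chromosome 10 from 121478332 to 121598458 (GRCh38, minus strand), encodes the receptor whose epithelial isoform binds FGF7 and FGF10. It was at 104 and 119 CPM on day 16, 104 and 109 on day 23, 81.2 and 90.8 on day 31, 94.2 and 93.0 on day 38, and 41.5 and 38.4 on day 45. Both day 45 libraries lay below all 8 others. The libraries of days 31 and 38 lay below those of days 16 and 23, and no step up to day 38 was called. From day 38 to day 45 it fell, by a log2 fold change of −1.23 (SE 0.17, edgeR adjusted p = 1.74e-06) which stayed between −1.28 and −1.17 under the 17 alternatives that could be fitted. The counts do not separate its epithelial and mesenchymal isoforms.

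*FGFR1*, whose main isoforms are typical of mesenchyme, went the other way. Its level was 95.1 and 72.9 CPM on day 16, 66.8 and 79.5 on day 23, 52.2 and 47.2 on day 31, 57.4 and 49.0 on day 38, and 83.8 and 81.5 on day 45. The day 45 libraries lay above those of days 31 and 38 and within the range of day 16. The rise from day 38 to day 45 was 0.63 on the log2 scale (SE 0.19, edgeR adjusted p = 0.0204). It was not called when either day 38 library (log2 fold change 0.75 without library 1 and 0.53 without library 2) or either day 45 library (0.62 and 0.66) was left out.

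In every library from day 16 to day 38, *FGFR2* had more counts than *FGFR1*, with a ratio of raw counts from 1.09 to 1.92. At day 45 the ratio was 0.496 and 0.472. Since both counts come from the same library, this ratio does not depend on the scaling. It does depend on gene length, which is the same on all days.

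*FGFR3* was at 52.7 and 49.4 CPM on day 16, 60.6 and 63.4 on day 31 and 74.3 and 56.4 on day 45, and was not called in any comparison (edgeR adjusted p = 0.258 over all days). *FGFR4*, a receptor typical of endoderm, was the least abundant, at 4.06 and 6.65 CPM on day 16, 4.21 and 0.915 on day 23, 6.24 and 11.2 on day 31, 7.13 and 10.2 on day 38 and 10.7 and 6.66 on day 45. It was not called either (edgeR adjusted p = 0.108). Leaving out library 1 of day 23 turned its step from day 23 to day 31 into a call, with a log2 fold change of 3.23 against 1.75, so this value rests on that library.

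**Figure D2:**
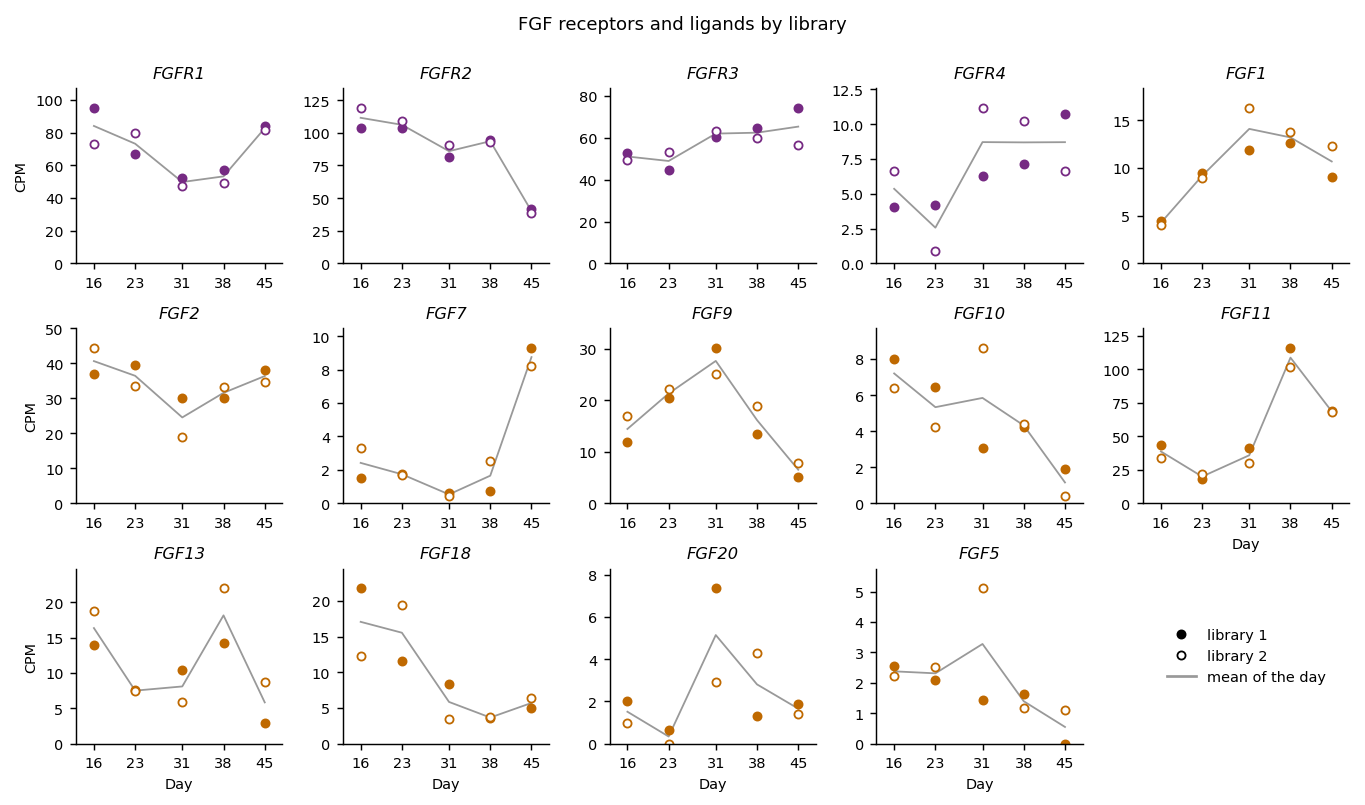
CPM (y axis, from 0) by day for the 4 receptor genes (purple) and 10 FGF genes (orange), library 1 filled, library 2 open, with a line through the mean of each day. *FGFR2* dropped and *FGF7* was high on day 45 only, while *FGF11* had its highest level, 116 and 102 CPM, on day 38.

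*FGF2*, a secreted ligand that binds several receptors and is held on heparan sulphate, was at 36.9 and 44.5 CPM on day 16, 39.5 and 33.5 on day 23, 30.2 and 19.0 on day 31, 30.03 and 33.2 on day 38, and 38.2 and 34.6 on day 45. No comparison was called (edgeR adjusted p = 0.159 over all days), and the libraries of all days overlapped those of another. *NUDT6* overlaps 11.8% of the exon bases of *FGF2* on the opposite strand, and whether counting used the strand is not given in the sources used here, so reads in that stretch cannot be assigned to one gene.

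*FGF9*, a ligand of epithelial origin in the embryonic lung, was at 11.9 and 17.0 CPM on day 16, 20.4 and 22.3 on day 23, 30.2 and 25.1 on day 31, 13.5 and 18.9 on day 38, and 5.23 and 7.86 on day 45. The day 31 libraries were the highest of the 10 and the day 45 libraries the lowest. Over the last step it fell by 1.29 on the log2 scale (SE 0.36, edgeR adjusted p = 0.0137), a call lost without library 2 of day 38 (−1.03) or library 1 of day 45 (−1.04). From day 16 to day 45 the log2 fold change was −1.13 (edgeR adjusted p = 0.018). That call was lost without library 2 of day 16 (−0.85), without library 1 of day 45 (−0.88), and when only these 2 days were fitted (−1.15).

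*FGF18*, of the FGF8 family, was at 21.8 and 12.3 CPM on day 16, 11.6 and 19.4 on day 23, 8.29 and 3.37 on day 31, 3.56 and 3.73 on day 38 and 4.94 and 6.44 on day 45. All 4 libraries of days 16 and 23 lay above the other 6. No single step was called, and the fall from day 16 to day 45 reached a log2 fold change of −1.58 (SE 0.50, edgeR adjusted p = 0.0164). It was not called without library 1 of day 16 (−1.12) or library 1 of day 45 (−1.40).

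*FGF1*, the ligand that can bind all receptors, had its lowest level on day 16. It was at 4.44 and 4.06 CPM on day 16, 9.42 and 8.92 on day 23, 11.9 and 16.3 on day 31, 12.6 and 13.7 on day 38 and 9.001 and 12.3 on day 45. Both day 16 libraries lay below all 8 others. The rise to day 45 was 1.33 on the log2 scale (SE 0.45, edgeR adjusted p = 0.0265). It was lost without library 1 or 2 of day 16 (1.38 and 1.27), without library 2 of day 45 (1.08), or with only these 2 days fitted (1.32).

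The ligands of FGFR2's epithelial isoform, *FGF7* and *FGF10*, which mesenchymal cells are known to make, differed at the last day. *FGF7* was at 1.52 and 3.32 CPM on day 16, 1.77 and 1.71 on day 23, 0.614 and 0.465 on day 31, 0.756 and 2.56 on day 38, and 9.29 and 8.19 on day 45. Both day 45 libraries, with 64 and 75 counts, lay above all others, of which the highest had 27. *FGF7* was called over all days (edgeR adjusted p = 0.00834). Its step from day 38 to day 45, a log2 fold change of 2.39 (SE 0.91), missed the threshold (edgeR adjusted p = 0.0929) and passed it with DESeq2 (adjusted p = 0.037) or with only these 2 days fitted.

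*FGF10* was at 7.99 and 6.40 CPM on day 16, 6.43 and 4.23 on day 23, 3.07 and 8.61 on day 31, 4.21 and 4.42 on day 38, and 1.89 and 0.437 on day 45, the last from 13 and 4 counts. The day 45 libraries were the lowest of the 10. Over all days *FGF10* was not called (edgeR adjusted p = 0.0672). Between days 16 and 45 it fell (log2 fold change −2.66, SE 0.77, edgeR adjusted p = 0.00937), and the change was −1.92, not called, without library 2 of day 45. From day 38 to day 45 it was −1.93 (edgeR adjusted p = 0.112), and −3.26 and called without library 1 of day 45.

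Over the same days the 10 fibroblast markers, none of them at 0 in all libraries, summed to 1916 and 2254 CPM on day 31, 4551 and 4744 on day 38, and 4780 and 3872 on day 45. From day 38 to day 45, 3 of the 10 rose (*DCN*, *LUM* and *PDGFRA*) and none was called lower. Their part in the levels of *FGF7* and *FGF10* was not tested.

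The remaining secreted ligands had few counts. *FGF20* had 16 and 8 counts on day 16, 6 and 0 on day 23, 72 and 25 on day 31, 12 and 37 on day 38, and 13 and 13 on day 45. Its day 31 level was above day 23 in both libraries, and the step missed the threshold (edgeR adjusted p = 0.121), while DESeq2 and the fit of only these 2 days called it. *FGF5* had 14 and 44 counts on day 31, its highest mean, and 0 and 10 on day 45. *FGF8*, an early patterning ligand, had 13 and 5 counts on day 16, 0 and 7 on day 31, 0 and 13 on day 45 and none on days 23 and 38.

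*FGF17* had 7 and 8 counts on day 38 and 9 and 12 on day 45, 5 or fewer before, and was not called in any comparison. *FGF22* had 11 and 1 counts on day 31, 16 and 2 on day 45 and 4 or fewer elsewhere. Of the hormone-like FGFs, *FGF23*, which acts on kidney phosphate, had 0 to 37 counts in a library, and *FGF19*, a bile acid signal, had 22 counts in library 2 of day 45 and 8 or fewer elsewhere. Neither was called in any comparison. *FGF3* and *FGF21* had 0 counts in all 10 libraries, *FGF4* had counts in library 2 of day 31 only (14), *FGF6* in library 1 of day 16 only (10), and *FGF16* in library 1 of day 45 only (3). A count of 0 allows up to 3 counts, which covers counting error only.

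The 4 FGFs that stay inside the cell, *FGF11* to *FGF14*, bind voltage-gated sodium channels and are not classed as receptor ligands. Their summed level was 60.7 CPM on day 16 (mean of 2 libraries), 28.6 on day 23, 45.3 on day 31, 129 on day 38 and 76.4 on day 45. That of the 15 paracrine FGFs was 91.7, 92.6, 89.1, 75.6 and 74.9 CPM on the same days. These sums are not per length and are not compared with each other.

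*FGF11*, on chromosome 17 from 7438273 to 7444937 (GRCh38, plus strand), made up most of this sum. It was at 43.9 and 33.7 CPM on day 16, 18.4 and 21.7 on day 23, 41.6 and 30.4 on day 31, 116 and 102 on day 38, and 69.1 and 68.4 on day 45. The 2 libraries of day 38 lay above all others and those of day 23 below all others. It rose by 1.60 on the log2 scale from day 31 to day 38 (SE 0.21, edgeR adjusted p = 5.18e-07), between 1.37 and 1.84 under all alternatives fitted. An unnamed noncoding gene on the same strand covers 82.1% of its exon bases, so reads from the pair cannot be told apart.

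Its smaller steps depended more on single libraries. The fall from day 16 to day 23 had a log2 fold change of −0.95 (in edgeR, adjusted p = 0.00263), lost without library 1 of day 23 (−0.84). The rise from day 23 to day 31 was 0.84 (edgeR adjusted p = 0.0264), lost without library 1 or 2 of day 23 (0.73 and 0.97), library 1 of day 31 (0.60) or library 1 of day 38 (0.84, adjusted p = 0.051), and with only the 2 days fitted. The fall from day 38 to day 45 was −0.66 (edgeR adjusted p = 0.0291), lost without any one of the 4 libraries compared (−0.56 and −0.76 without library 1 and 2 of day 38, −0.67 and −0.65 without library 1 and 2 of day 45) and with library-size or upper-quartile scaling (−0.61 and −0.60). From day 16 to day 45 the change was 0.82 (edgeR adjusted p = 0.0029) and was called under all alternatives except the minimum log2 fold change of 1.

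*FGF13* was at 13.9 and 18.7 CPM on day 16, 7.54 and 7.43 on day 23, 10.3 and 5.82 on day 31, 14.3 and 22.0 on day 38 and 2.90 and 8.74 on day 45. Its fall from day 38 to day 45 had a log2 fold change of −1.62 (SE 0.47, edgeR adjusted p = 0.0202), and that from day 16 to day 45 was −1.47 (edgeR adjusted p = 0.0195). Without library 1 of day 45, the lower of its pair, these were −1.05 and −0.90 and not called. The first was also lost without library 2 of day 38 (−1.27) and the second without library 2 of day 16 (−1.24).

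*FGF14* had 49 and 24 counts on day 16 and 1 to 13 in the other libraries, and *ITGBL1* overlaps 29.7% of its exon bases on the opposite strand. *FGF12* had 0 to 15 counts in a library. Neither gene was called in any comparison.

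Of the genes downstream of ERK, *ETV5* was called in 4 of the 5 comparisons of days. *ETV5*, on chromosome 3 from 186046314 to 186110318 (GRCh38, minus strand), encodes a PEA3 factor that marks FGF-responsive epithelium such as distal lung buds. It was at 5.96 and 9.61 CPM on day 16, 40.9 and 37.7 on day 23, 95.4 and 106 on day 31, 13.6 and 16.0 on day 38, and 20.9 and 25.8 on day 45. No 2 days overlapped. It rose by 2.33 on the log2 scale to day 23 (SE 0.27, edgeR adjusted p = 7.66e-08) and by 1.35 to day 31 (SE 0.24, edgeR adjusted p = 0.000567), and then fell by 2.77 to day 38 (SE 0.26, edgeR adjusted p = 3.07e-10).

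These 3 steps were called under every alternative fitted, with ranges of 2.05 to 2.72, 1.27 to 1.43 and −2.98 to −2.66. At day 45 *ETV5* remained above day 16, by 1.58 (edgeR adjusted p = 2e-05). The difference between day 45 and day 38, 0.66, missed the threshold (edgeR adjusted p = 0.0944).

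*ETV4*, a close relative, was at 2.16 and 2.09 CPM on day 16, 1.22 and 3.66 on day 23, 8.09 and 10.1 on day 31, 1.08 and 0.349 on day 38 and 2.03 and 0.328 on day 45. The day 31 libraries, with 79 and 87 counts, lay above all others, of which the highest had 32. Its fall to day 38 had a log2 fold change of −3.64 (SE 1.00, edgeR adjusted p = 0.0101). The call was lost without library 2 of day 31 (−3.47) or without library 2 of day 38 (−3.06), which had 3 counts.

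*ETV1*, the other PEA3 gene and one of a list of ERK-induced genes that the rule did not take in, was at 154 and 166 CPM on day 16, 359 and 370 on day 23, 315 and 317 on day 31, 41.7 and 44.01 on day 38 and 25.8 and 34.3 on day 45. It rose by 1.19 on the log2 scale to day 23 (SE 0.14, edgeR adjusted p = 1.26e-07) and fell by 2.88 to day 38 (SE 0.15, edgeR adjusted p = 1.65e-16). Like *ETV5* it was high on days 23 and 31, but its highest pair was on day 23.

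*SFTPB*, a distal lung marker, was also highest on day 31. The 8 genes of a distal lung list, of which it was highest in CPM on days 23 and 31 and *ABCA3* on the other days, summed to 61.9 and 35.3 CPM on day 16, 225 and 218 on day 23, 637 and 641 on day 31, 137 and 136 on day 38, and 131 and 162 on day 45. *SFTPB*, which encodes surfactant protein B, was at 499 and 502 CPM on day 31 and 6.59 and 8.62 on day 38, whereas *SFTPC*, the defining gene of mature alveolar type 2 cells, never had more than 3 counts. From day 31 to day 38, 2 of the 7 tested genes of this list fell (*SFTPB* and *LAMP3*) and none rose, and *ABCA3*, at 101 and 112 CPM on day 31, was at 122 and 118 on day 38. Their part in the course of *ETV5* was not tested.

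*DUSP5* and *DUSP6* were low from day 23 to day 38, whereas *DUSP4* was highest on day 31. *DUSP5*, on chromosome 10 from 110497907 to 110511533 (GRCh38, plus strand), encodes a nuclear phosphatase that binds ERK. It was at 33.6 and 22.2 CPM on day 16, 2.44 and 2.74 on day 23, 4.30 and 5.24 on day 31, 7.56 and 6.52 on day 38, and 46.0 and 46.3 on day 45. Both libraries of days 23, 31 and 38 lay far below those of the first and the last day.

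*DUSP5* fell by 3.42 on the log2 scale from day 16 to day 23 (SE 0.38, edgeR adjusted p = 4.09e-08) and rose by 2.71 from day 38 to day 45 (SE 0.35, edgeR adjusted p = 6.88e-07). Both were called under all alternatives fitted, between −3.69 and −3.08 and between 2.61 and 2.82. The ratio of *DUSP5* to *DUSP6* counts, which is free of the scaling, was 0.580 and 0.267 on day 16, between 0.0746 and 0.210 on days 23 to 38, and 0.712 and 0.701 on day 45.

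*DUSP6*, on chromosome 12 from 89347235 to 89352501 (GRCh38, minus strand), encodes the cytoplasmic ERK phosphatase often read as a measure of FGF signalling. Its level was 57.9 and 83.1 CPM on day 16, 32.7 and 33.3 on day 23, 49.7 and 43.6 on day 31, 36.1 and 31.6 on day 38, and 64.6 and 66.1 on day 45. The libraries of days 23, 31 and 38 all lay below those of days 16 and 45. It fell by 1.10 to day 23 (SE 0.21, edgeR adjusted p = 0.000446). It rose by 0.95 from day 38 to day 45 (SE 0.21, edgeR adjusted p = 0.0021), which was 0.86 and not called without library 2 of day 38. An unnamed noncoding gene overlaps 28.6% of its exon bases on the opposite strand.

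*DUSP4*, the gene of another nuclear phosphatase, was highest on day 31 and lowest on day 38. It was at 63.8 and 57.8 CPM on day 16, 42.6 and 57.3 on day 23, 93.1 and 76.8 on day 31, 30.9 and 30.3 on day 38, and 51.1 and 55.6 on day 45. From day 31 to day 38 it fell by 1.47 on the log2 scale (SE 0.21, edgeR adjusted p = 1.38e-06), and this held under all alternatives fitted. The rise of 0.77 to day 31 (edgeR adjusted p = 0.0287) was lost without library 1 of day 23 (0.57) and without library 1 or 2 of day 31 (0.62 and 0.89). The rise of 0.80 to day 45 (edgeR adjusted p = 0.007) was lost without library 1 or 2 of day 38 (0.82 and 0.79) and without library 2 of day 45 (0.74).

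At day 45 all 3 phosphatase genes were therefore above day 38, and none differed detectably from day 16 (log2 fold changes of 0.73 for *DUSP5*, −0.11 for *DUSP6* and −0.19 for *DUSP4*, none called). Only *DUSP4* was called lower from day 31 to day 38. With library-size scaling in place of TMM factors all genes together were shifted over that step, with a median of −0.20 in log2 fold change, and *DUSP6* (−0.69) and *FGF9* (−0.99) were then called lower as well.

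**Figure D3:**
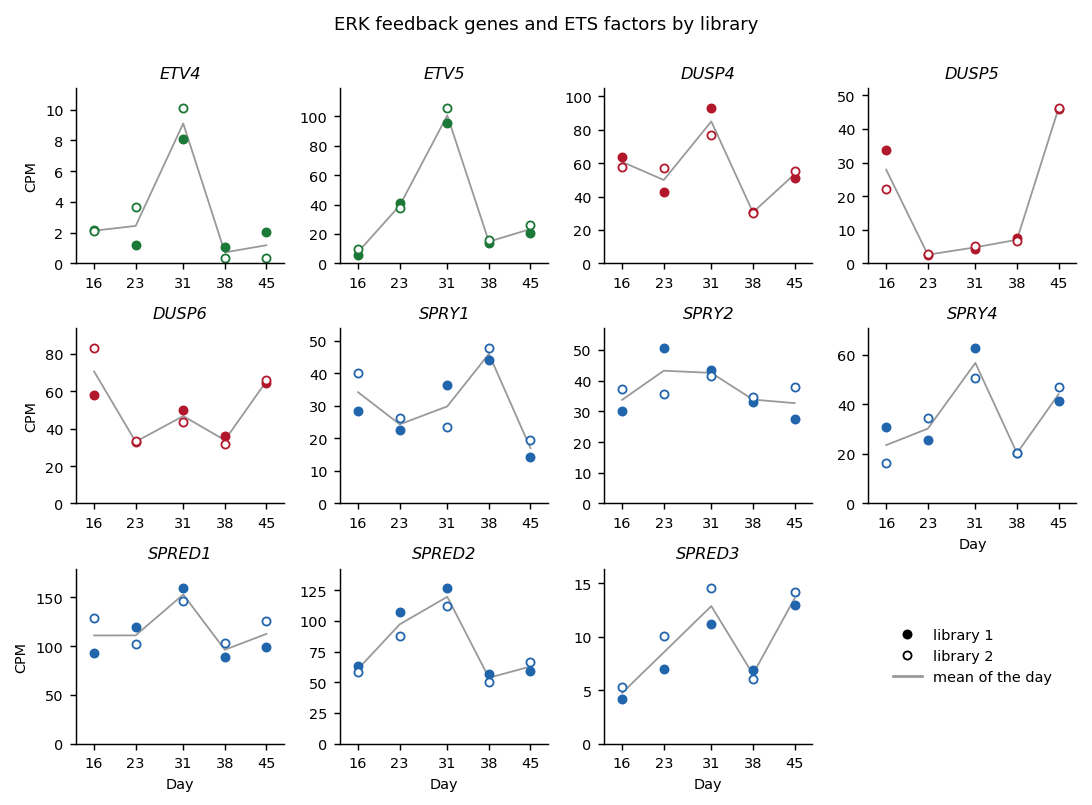
CPM (y axis, from 0) by day for the ETS genes (green), phosphatase genes (red) and Sprouty and Spred genes (blue), library 1 filled, library 2 open, with a line through the mean of each day. *ETV5* peaked on day 31 with 95.4 and 106 CPM, while *DUSP5* was low from day 23 to day 38 and reached 46.0 and 46.3 CPM on day 45.

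Of the Sprouty and Spred genes, *SPRY4*, *SPRED1* and *SPRED2* had their highest means on day 31 and fell together to day 38. *SPRY4*, an inhibitor of receptor tyrosine kinase signalling, was at 30.7 and 16.4 CPM on day 16, 25.7 and 34.6 on day 23, 62.7 and 50.6 on day 31, 20.2 and 20.4 on day 38, and 41.2 and 46.9 on day 45. Its day 31 libraries were the highest of the 10 and its day 45 libraries came next. The fall to day 38 had a log2 fold change of −1.48 (SE 0.27, edgeR adjusted p = 0.000107) and was called under all alternatives fitted.

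The return of *SPRY4* on day 45 was 1.12 on the log2 scale (SE 0.27, edgeR adjusted p = 0.00415). It missed the threshold without library 1 of day 38 (1.11) and without library 2 (1.12). Against day 16, day 45 was higher by 0.91 (edgeR adjusted p = 0.0107), which was 0.52 and not called without library 2 of day 16, the lower of its pair, and 0.81 without library 2 of day 45. The step from day 23 to day 31, 0.91, missed the threshold (edgeR adjusted p = 0.0617). It passed with the replicate block (0.90, edgeR adjusted p = 0.0198), without the low-count filter, with only these 2 days fitted, and without either day 16 library.

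*SPRED2*, whose product blocks RAF activation, was at 63.5 and 58.2 CPM on day 16, 107 and 87.5 on day 23, 127 and 113 on day 31, 57.0 and 50.3 on day 38, and 59.2 and 66.4 on day 45. Days 23 and 31 lay above the other days in both libraries. It rose by 0.68 on the log2 scale to day 23 (SE 0.17, edgeR adjusted p = 0.00782), or by 0.52, not called, without library 1 of day 23. It fell to day 38 with a log2 fold change of −1.16 (SE 0.18, edgeR adjusted p = 5.97e-06), and under all alternatives fitted.

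*SPRED1*, the related gene mutated in Legius syndrome, was at 93.1 and 129 CPM on day 16, 119.7 and 102 on day 23, 159.7 and 146 on day 31, 88.9 and 104 on day 38, and 99.2 and 126 on day 45. The day 31 libraries lay above all others. Its fall to day 38 was −0.67 (SE 0.17, edgeR adjusted p = 0.00401), lost without library 1 of day 31 (−0.60) or library 1 of day 38 (−0.56).

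*SPRED3*, a further Spred gene, was at 4.18 and 5.30 CPM on day 16, 6.98 and 10.1 on day 23, 11.2 and 14.5 on day 31, 6.91 and 6.05 on day 38, and 12.9 and 14.2 on day 45. It was highest on days 31 and 45, without overlap with the other days. The rise from day 16 to day 45 was 1.51 on the log2 scale (SE 0.47, edgeR adjusted p = 0.015), lost without library 1 of day 16 (1.34) or library 2 of day 45 (1.44).

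*SPRY1* had another course than *SPRY4*. It was at 28.4 and 40.0 CPM on day 16, 22.5 and 26.2 on day 23, 36.3 and 23.4 on day 31, 44.2 and 47.9 on day 38, and 14.4 and 19.7 on day 45. Day 38, where *SPRY4* was low, held the 2 highest libraries, and day 45 the 2 lowest. The fall from day 38 to day 45 had a log2 fold change of −1.43 (SE 0.28, edgeR adjusted p = 0.000399) and was called under all alternatives fitted. That from day 16 to day 45 was −1.002 (edgeR adjusted p = 0.00666), lost without library 2 of day 16 (−0.73) or library 1 of day 45 (−0.80).

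Within a library, the ratio of *SPRY4* to *SPRY1* counts was 1.08 and 0.409 on day 16, 1.14 and 1.32 on day 23, 1.73 and 2.16 on day 31, 0.457 and 0.426 on day 38, and 2.87 and 2.38 on day 45. The last 3 days did not overlap each other, while library 2 of day 16 was as low as day 38. *SPRY2* was the one feedback gene not called in any comparison (edgeR adjusted p = 0.407 over all days). It was at 30.2 and 37.3 CPM on day 16, 50.7 and 35.8 on day 23, 43.6 and 41.4 on day 31, 32.9 and 34.7 on day 38 and 27.4 and 37.9 on day 45. Its libraries of days 16, 38 and 45 overlapped, and day 31 lay above these 3 days and within day 23.

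The sequence before the start of these genes was read from a table of RefSeq start windows (GRCh38.p14). In it 25 of the 37 members were matched, with 46 windows, and the other members were not analysed here. Only the 250 bases before the start were searched, on both strands, for an ETS motif (CCGGAAGT), a full cAMP response element (TGACGTCA), its core (TGACG, which the full element contains) and an AP-1 motif (TGANTCA). Of the 35116 windows of the same length in this table, 3.423% held the ETS motif, 1.646% the full element, 21.218% the element core and 6.573% the AP-1 motif. Among the 25 members, 0 held the ETS motif, 1 the full element (*FGF6*, which had almost no counts), 8 the element core and 3 the AP-1 motif. Members have several windows, and by windows these were 0, 1, 9 and 3 of 46.

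Shown here are the windows of *DUSP6* and *SPRED1*, which changed, and of *SPRY2*, which was not called. All 3 lie before the annotated gene and outside its own exons, at chr12:89352502-89352751 (minus strand), chr15:38252586-38252835 (plus strand) and chr13:80341127-80341376 (minus strand). Capitals mark the element core, 190 bases before the start of *SPRY2*. The *DUSP6* and *SPRED1* windows hold none of the 4 motifs. The *DUSP6* window overlaps an exon of an unnamed noncoding gene.
DUSP6: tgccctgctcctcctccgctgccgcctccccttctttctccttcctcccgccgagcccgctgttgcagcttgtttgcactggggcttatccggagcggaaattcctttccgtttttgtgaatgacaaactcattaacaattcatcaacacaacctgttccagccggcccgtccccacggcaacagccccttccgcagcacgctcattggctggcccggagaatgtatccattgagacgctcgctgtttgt
SPRED1: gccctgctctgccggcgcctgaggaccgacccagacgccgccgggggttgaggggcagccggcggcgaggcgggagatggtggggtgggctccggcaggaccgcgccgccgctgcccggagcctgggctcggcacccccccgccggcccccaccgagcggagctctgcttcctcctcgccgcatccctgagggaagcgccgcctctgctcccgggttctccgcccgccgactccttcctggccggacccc
SPRY2: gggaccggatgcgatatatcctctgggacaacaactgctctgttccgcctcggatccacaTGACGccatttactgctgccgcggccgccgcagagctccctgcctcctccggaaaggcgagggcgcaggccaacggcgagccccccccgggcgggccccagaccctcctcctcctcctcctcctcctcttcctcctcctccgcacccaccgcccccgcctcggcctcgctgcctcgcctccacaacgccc

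The window of *SPRY4* holds the element core 68 bases before the start, and one of the *SPRED3* windows holds an AP-1 motif 60 bases before the start. Since both windows run over annotated exons, only short stretches are given, from chr5:142324302-142324324 (minus strand) and chr19:38389722-38389746 (plus strand), with the motif in capitals.
SPRY4: tcggagccgTGACGgactgaatt
SPRED3: gttgctgggTGACTCAgtgagcttt

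A match is a description of these letters. *SPRY4*, with an element core, changed and *SPRY2*, with an element core, was not called, and no binding was measured. The other 5 members with an element core besides *FGF6* are *FGF1*, *FGF2*, *FGF13*, *FGF14* and *FGF23*, and *FGF1* and *FGF13* also hold an AP-1 motif.

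Levels of different genes can be compared only per length, here as mean CPM per kilobase of merged exons. On that scale *DUSP6* led on day 16 (18.3), *SPRED2* on days 23 and 31 (17.7 and 21.7), *FGF11* on day 38 (21.4) and *DUSP5* on day 45 (18.2). The place of *FGF11* cannot be assigned to that gene alone, since the noncoding gene on its strand covers 82.1% of its exon bases. *ETV5* was at 1.35 on day 16 and 17.4 on day 31, behind only *SPRED2* and *SPRED1* (21.7 and 19.7). *DUSP5* went from 1.02 on day 23 to the first place on day 45.

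Among the receptors *FGFR3* was the highest per kilobase on every day, from 10.1 to 13.5. *FGFR2* was at 5.93 on day 16 and 2.13 on day 45, and *FGFR1* at 4.88 and 4.80. Of the secreted ligands *FGF18* was first on day 16 (8.54) and day 23 (7.78), *FGF9* on day 31 (5.71) and *FGF2* on days 38 and 45 (4.65 and 5.35). Differences of neighbours in these orders were not tested. The place of *FGFR3* rests on length, since its merged exons hold 4848 bases, against 18813 for *FGFR2* and 17201 for *FGFR1*. In raw counts *FGFR2* was 1.34 to 2.41 times *FGFR3* in the libraries of days 16 to 38, and 0.559 and 0.682 times on day 45.

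**Figure D4:**
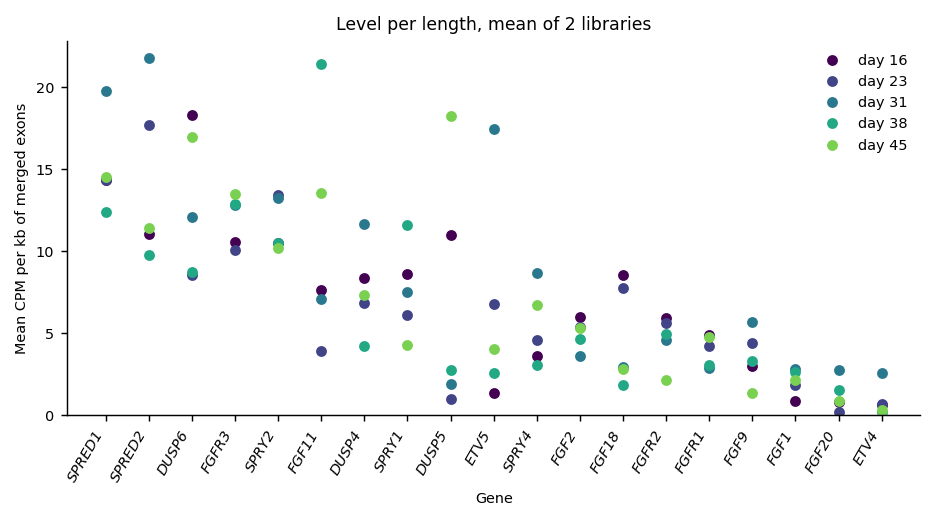
Mean CPM per kilobase of merged exons (y axis, 2 libraries) for members with at least 2.5 on some day, ordered by their mean over days, one colour per day. *DUSP5*, *ETV5* and *FGF11* spread most between days, while *SPRY2* and *FGFR3* stayed between 10.1 and 13.5.

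The pathway around the members was described with lists chosen by function. Of 24 co-receptor and FGF-binding genes, 23 were tested, and 8 of these changed from day 16 to day 23 (4 higher, 4 lower), 2 to day 31 (both higher), 8 to day 38 (6 higher, 2 lower) and 9 to day 45 (2 higher, 7 lower). Of all genes tested, 5.6% were called higher and 5.33% lower at the first of these steps, 1.58% and 0.666% at the next, 8.8% and 6.23% to day 38, and 4.85% and 6.35% to day 45, and these shares apply to all lists that follow. The largest called fall of the first step was that of *FGFBP1*, which encodes a carrier that frees FGFs from matrix, from 18.6 and 11.0 CPM to 1.77 and 1.94 (log2 fold change −2.98, edgeR adjusted p = 0.0107). The median log2 fold change of the list from day 38 to day 45 was −0.27, against −0.02 for all genes tested.

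*SDC4*, a syndecan that carries heparan sulphate, rose from 40.9 and 52.1 to 81.8 and 81.3 CPM between days 23 and 31 (log2 fold change 0.81, edgeR adjusted p = 0.01). *GPC1*, a glypican, rose from 30.1 and 27.3 to 84.6 and 87.8 CPM on day 38 (log2 fold change 1.58, edgeR adjusted p = 1.04e-06). *SULF1*, which trims the heparan sulphate groups that FGFs need, rose at each step to 340 and 314 CPM on day 38 and fell to 128 and 94.0 on day 45 (log2 fold change −1.56, SE 0.15, edgeR adjusted p = 1.7e-09).

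*FGFRL1*, which encodes a receptor without a kinase domain, rose from 68.6 and 64.3 CPM on day 31 to 162 and 174 on day 38 (log2 fold change 1.34, edgeR adjusted p = 6.17e-08) and was at 129 and 132 on day 45. It was named after its values were seen. Over the whole course the largest called change of the list was in *FLRT3*, a membrane protein that binds FGF receptors, from 9.003 and 11.8 CPM on day 16 to 72.6 and 83.6 on day 45 (log2 fold change 2.90, edgeR adjusted p = 9.58e-11). Klotho genes were low, with *KL* at most at 2.99 CPM and *KLB* at most at 15.3.

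In the core of the cascade, none of 15 RAS, RAF, MEK and ERK genes changed from day 16 to day 23 and 1 rose to day 31, the kinase gene *RPS6KA3*, from 131 and 156 to 237 and 199 CPM (log2 fold change 0.60, edgeR adjusted p = 0.0166). From day 31 to day 38, where 8.8% of all genes were called higher and 6.23% lower, 4 rose and 1 fell, with *RPS6KA2*, an ERK-activated kinase gene, rising from 29.6 and 24.8 to 56.9 and 56.4 CPM (log2 fold change 1.06, edgeR adjusted p = 0.00122). It was higher on day 45 than on day 16 by 1.80.

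All 13 adaptor genes were tested, and none was called in the first 2 steps. From day 31 to day 38, 1 rose (*PTPN11*, 0.48 in log2 fold change) and 1 fell. *GAB1*, a docking protein gene, fell from 130.3 and 131 to 91.3 and 86.5 CPM (log2 fold change −0.56, edgeR adjusted p = 0.0114). Over the last step 1 rose and 2 fell (*PLCG1* and *GAB1*, by log2 fold changes of −0.65 and −0.49). *CRK*, a small adaptor, rose from 86.1 and 70.7 to 121 and 142 CPM (log2 fold change 0.75, edgeR adjusted p = 0.00186). From day 16 to day 45 it rose by 1.15.

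Among 8 genes for RAS inactivators and other inhibitors, *IL17RD*, which encodes the membrane FGF antagonist SEF, was the only one called in single steps. It was at 68.0 and 81.8 CPM on day 16, 71.7 and 67.7 on day 23, 70.5 and 63.2 on day 31, 42.9 and 44.8 on day 38, and 17.9 and 14.3 on day 45. Days 16 to 31 overlapped, and days 38 and 45 each lay below. The log2 fold changes were −0.61 to day 38 (edgeR adjusted p = 0.0334) and −1.45 to day 45 (edgeR adjusted p = 6.04e-06). The 3 phosphatase members rose over this last step, while *IL17RD*, also known as an ERK-induced inhibitor, fell.

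Of 7 other MAP kinase phosphatase genes, *DUSP8*, whose product acts mostly on JNK and p38, was called higher in 3 comparisons. It was at 3.68 and 1.85 CPM on day 16, 11.7 and 7.09 on day 23, 14.6 and 21.4 on day 31, 15.4 and 13.2 on day 38 and 28.0 and 41.0 on day 45. It rose to day 23 by 1.77 on the log2 scale (in edgeR, adjusted p = 0.00437) and to day 45 by 1.27 (edgeR adjusted p = 0.0203). *DUSP2* rose from 2.97 and 4.19 CPM on day 31 to 12.7 and 9.55 on day 38 (log2 fold change 1.64, edgeR adjusted p = 0.0142). Of the 7 genes, 1 was called higher and 1 lower from day 38 to day 45. From day 16 to day 45, 2 were called higher and 2 lower, where 12.9% of all genes were called higher and 11.7% lower. *DUSP1* went from 727 and 729 CPM on day 16 to 460 and 422 on day 45.

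Other ERK-induced genes divided on day 45. Of 14 such genes 13 were tested, and from day 38 to day 45, 6 of these rose and 5 fell, where 4.85% of all genes were called higher and 6.35% lower, with a median log2 fold change of 0.69 against −0.02 for all genes tested. *FOSL1*, which encodes the AP-1 subunit FRA1, went from 3.24 and 2.79 CPM on day 38 to 124 and 107 on day 45 (log2 fold change 5.25, SE 0.44, edgeR adjusted p = 8.93e-11). *EPHA2*, an ephrin receptor gene, rose from 32.1 and 22.1 to 141 and 135 CPM (log2 fold change 2.34, edgeR adjusted p = 3.76e-10), and *EGR2* from 25.1 and 30.3 to 121 and 123 (log2 fold change 2.14, edgeR adjusted p = 9.38e-07). *MAFF*, *MYC* and *PHLDA1* rose by 1.47, 1.34 and 0.69.

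In the same libraries *FOS*, the classical immediate early gene, fell from 1518 and 1401 CPM to 382 and 338 (log2 fold change −2.02, SE 0.11, edgeR adjusted p = 5.72e-15). *EGR1* fell from 2225 and 2028 to 1132 and 1029 CPM (log2 fold change −0.98, edgeR adjusted p = 3.03e-06). *IER2*, *EPHA4* and *ETV1* were called lower as well, at −0.66, −0.73 and −0.50.

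**Figure D5:**
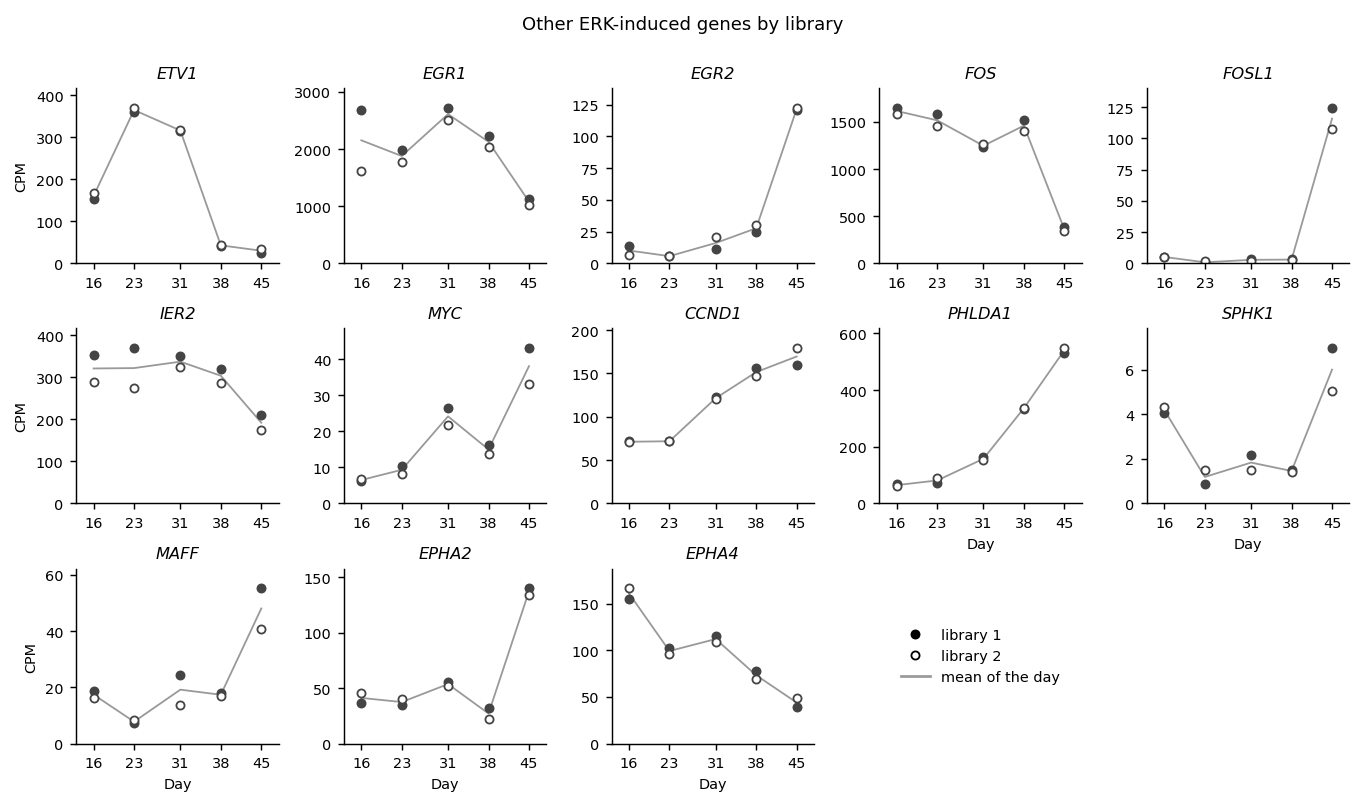
CPM (y axis, from 0) by day for the 13 tested genes of the ERK-induced list, library 1 filled, library 2 open, with a line through the mean of each day. *FOSL1*, *EGR2* and *EPHA2* stood out on day 45, where *FOS* was at 382 and 338 CPM, its lowest pair, and *ETV1* dropped after day 31.

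In earlier steps the same list had 1 gene higher (*ETV1*) and 3 lower (*FOSL1*, *MAFF* and *EPHA4*) on day 23, 5 higher and 0 lower on day 31, and 1 higher and 3 lower on day 38. The largest called change on day 31 was that of *EGR2*, from 5.87 and 5.49 to 11.3 and 20.8 CPM (log2 fold change 1.49, edgeR adjusted p = 0.00438). *CCND1*, which encodes cyclin D1, rose at this step by 0.76. *MAFF* and *FOSL1* fell with *DUSP5* and *DUSP6* on day 23 and rose with them on day 45, while *ETV1* and *ETV5* rose to day 23 and fell to day 38. These lists were chosen by function with results of these data known, and nothing particular to them is read from the counts.

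Proliferation markers, which summed to 661 and 799 CPM on day 16 and 515 and 496 on day 23, also moved over the last step. The 10 genes of that list, none of them at 0 in all libraries and with *MKI67* highest in CPM over all 10 libraries and *TOP2A* on days 38 and 45, summed to 639 and 598 CPM on day 38 and 341 and 471 on day 45, with 3 called lower. *NKX2-1*, on whose allele GFP was sorted, fell over this step too (log2 fold change −1.20, edgeR adjusted p = 6.3e-07). *FOXE1* and *HHEX* of the 8 thyroid markers also fell (−0.82 and −0.86), and *TG* rose by 0.57. Of 5 goblet markers, *MUC5B* and *AGR2* rose (2.25 and 0.98) and *MUC5AC* fell (−4.30). *SFTPB*, *KRT5* and *CNN1*, the only genes called of the distal lung, airway basal and cardiovascular muscle lists, rose by 2.67, 1.57 and 1.67. Of 5 tested pluripotency genes, *DPPA4* and *LIN28B* fell (−1.36 and −1.88). Their part in the changes of the FGF genes was not tested.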

How the data were processed

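Per the labels and the methods of the study, NKX2-1 GFP+ cells were sorted by FACS. Reads were trimmed with Trimmomatic, aligned with HISAT2 and counted with HTSeq on GRCh38.p13. The strand setting is not given in the sources used here. The deposited values are raw counts per gene from the authors, 1 file per library, 10 in all. The methods call the 2 libraries of a day biological replicates, but the labels name no separate differentiations, so p-values measure the spread between these libraries, which may be technical.

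Genes with at least 5 counts in 2 or more libraries were kept (21014 of 28265) and fitted over all 10 libraries with day as the factor (edgeR 4.0.16, TMM, quasi-likelihood F test, 5 residual degrees of freedom, R 4.3.3). P-values were adjusted over all genes tested by the Benjamini-Hochberg method. Standard errors were derived from the F statistics. Totals of 7247268 to 10333933 counts limit genes with few counts. Members were chosen by symbol, and of each pathway list the called gene with the largest absolute log2 fold change per comparison was named, among genes with a mean of at least 5 CPM in the libraries compared. Genes in parts of lists beyond that rule were named after their values were seen. Members and lists were chosen with earlier results of these data known. Alternatives were DESeq2 1.42.0, other scalings, no low-count filter, a 2-fold minimum, only the days compared, a replicate block and each library left out. The fit was tested on simulated data. One result of the pathway lists is not reported here.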

Additional observations from a re-analysis of the deposited data

How the results depend on the processing

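Of the 36 calls of a member in a comparison of days, 15 were called under all 17 alternatives other than the minimum log2 fold change of 1, which *FGF11* between days 16 and 45 (0.82) did not meet, and 0 changed direction, while 14 pairs not called became called under some alternative. The calls lost stand beside their values in the text, and the cause was not tested. With a minimum log2 fold change of 1, 3 members were called from day 16 to day 23, 1 from day 23 to day 31 and 6 from day 38 to day 45, in place of 5, 3 and 10, since that rule admits fewer genes by construction. With only days 23 and 31 fitted, 5 were called in place of 3. Leaving out each library in turn gave 3 to 5 members called for day 23 against 16, 1 to 4 for day 31 against 23, 6 to 7 for day 38 against 31, 3 to 11 for day 45 against 38, 6 to 11 for day 45 against 16, and 15 to 20 over all days. Where a day was left with 1 library, that library was assumed to vary like the other groups. With the replicate block the counts were 5, 4, 7, 10, 11 and 19. Deviations of same-numbered libraries correlated between -0.077 and 0.080 over the 10 pairs of days (13115 genes), so the libraries share only a number. Few counts, as for most ligands, limit the precision of their changes.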
